A study of Mus musculus with 18 samples.

Results

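Of 55291 genes in the deposited TPM table, 14 had at least 10 TPM in all 12 libraries of CT26 and CT26-NY-ESO-1 tumours and under 0.5 TPM in all 6 libraries of LL/2 tumours, and they are described here. TPM is transcript abundance per length, summing to the same total in each library. The 14 were selected on their measured TPM in these libraries. The thresholds kept 19 genes, and 5 of them (H2-Ea, Gbp2b, Ifi202b, Gm11127 and Gm10499) were left out by name. The levels in LL/2 and in the CT26 lines chose the 14 genes, so the contrast between them is given as a description, with no test. The line CT26 was derived from a colon carcinoma in BALB/c. CT26-NY-ESO-1 (CT26NYESO1 below) carries in its name the tumour antigen NY-ESO-1, a human protein. LL/2 (LL2 below), also called Lewis lung carcinoma, arose in C57BL/6. The cells were grown under the skin of BALB/cJ or C57BL/6J mice, and whole tumours were collected on day 14. OK-432 is a killed, freeze-dried preparation of Streptococcus pyogenes that was put into tumours for 24 hours. The 6 groups, of 3 libraries each, were CT26, CT26NYESO1 and LL2 tumours with OK-432 (OK432) and the same tumours without it (Ctrl). What the controls received, whether the 3 libraries of a group came from 3 mice, and the age and sex of the mice are not stated by the labels, so p-values measure the spread between libraries, which may be technical. The labels also do not say which strain carried which line, and the pairing of CT26 lines with BALB/c and LL2 with C57BL/6 used here is background knowledge. Each tumour type is 1 line, and under that pairing line and host strain change together, so a gene of the strain and a gene of the tumour line cannot be told apart by these libraries alone. In whole tumours, fewer cells of a type and less RNA per cell also cannot be told apart.

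The labels were checked against a few marker genes. H2-Ea and Klra4 were picked from a list of 44 strain-dependent genes, of which 35 were in the table. Of these 35, 13 were higher in every CT26-line library than in any LL2 library. The reverse held for 6. The share of all genes in either order was not counted, and no other gene of the list was used for this check. H2-Ea, a class II gene that C57BL/6 mice do not express, was listed at 0 in all 6 LL2 libraries and at 105 to 517 TPM in the CT26 lines, and Klra4, a natural killer receptor gene missing from BALB/c mice, was listed at 0 in all 12 CT26-line libraries and at 8.91 to 11.99 TPM in LL2. The epithelial list (Epcam, Cdh1, Krt8, Krt18 and Krt19) summed to 0.919 to 24.4 TPM in the CT26 lines and to 374 to 568 TPM in LL2. Epcam stayed at or under 0.304 TPM in all 18 libraries, Krt8 at or under 0.199 TPM in the CT26 lines, and Nkx2-1, a lung marker, was listed at 0 in all 18. The colon and lung labels were therefore not visible in these defining markers. Each library listed 24036 to 25858 genes above 0, and depth is unknown because TPM keeps none.

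Inbred mouse strains differ in which members of large gene families they carry and express. The class I genes of the major histocompatibility complex, the interferon-induced genes and the clustered zinc finger genes are well-known examples. Tumour lines differ further, through the tissue they came from and through gains, losses and silencing of genes in culture. A processed pseudogene is a copy of a spliced messenger RNA that was inserted elsewhere in the genome. It is often so similar to its source gene that short reads from the source can be assigned to the copy.

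By annotation the 14 genes fell into 7 named protein-coding genes (Pnma5, H2-Q2, Ifi44l, Zfp985, Cyp2c55, Itgbl1 and Ephb2), 2 provisional gene models (Gm8909 and Gm38312) and 5 pseudogenes (Gm14165, Gm18736, Gm11868, Gm45456 and Gm8515). None of the 14 was in the list of 44 strain-dependent genes. H2-Ea, Gbp2b and Ifi202b, left out by name, were in it, so the exclusions had a part in this result. A finer grouping was made after the members were known. It set apart 2 class I genes, H2-Q2 and Gm8909, and Ifi44l, an interferon-induced gene for which RefSeq also lists H28, the name of a minor histocompatibility antigen. Pnma5, Zfp985, Cyp2c55, Itgbl1 and Ephb2 remained by exclusion and were grouped as candidates for genes of the tumour lines, which was not tested. Zfp985 is one of the clustered zinc finger genes, a family named above as differing between strains, so its place in this group is uncertain. Gm38312 stayed unclassified. All 14 have a place in the C57BL/6J reference genome, although it was the C57BL/6 tumour that lacked them.

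In the CT26 lines the 168 values ran from 10.2 to 131 TPM. In LL2 the 84 values had a median of 0.0446 TPM and a maximum of 0.327 TPM, and 27 of them were listed at 0. The 14 genes together held 463 to 588 TPM in each CT26-line library and 0.751 to 1.48 TPM in each LL2 library. The LL2 libraries with OK-432 summed to 0.751, 0.806 and 1.48 TPM and those without it to 1.13, 0.994 and 1.03 TPM, and the rule set all 6 low. The plot of TPM by library shows the gap between the thresholds for each gene.

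**Figure D1:**
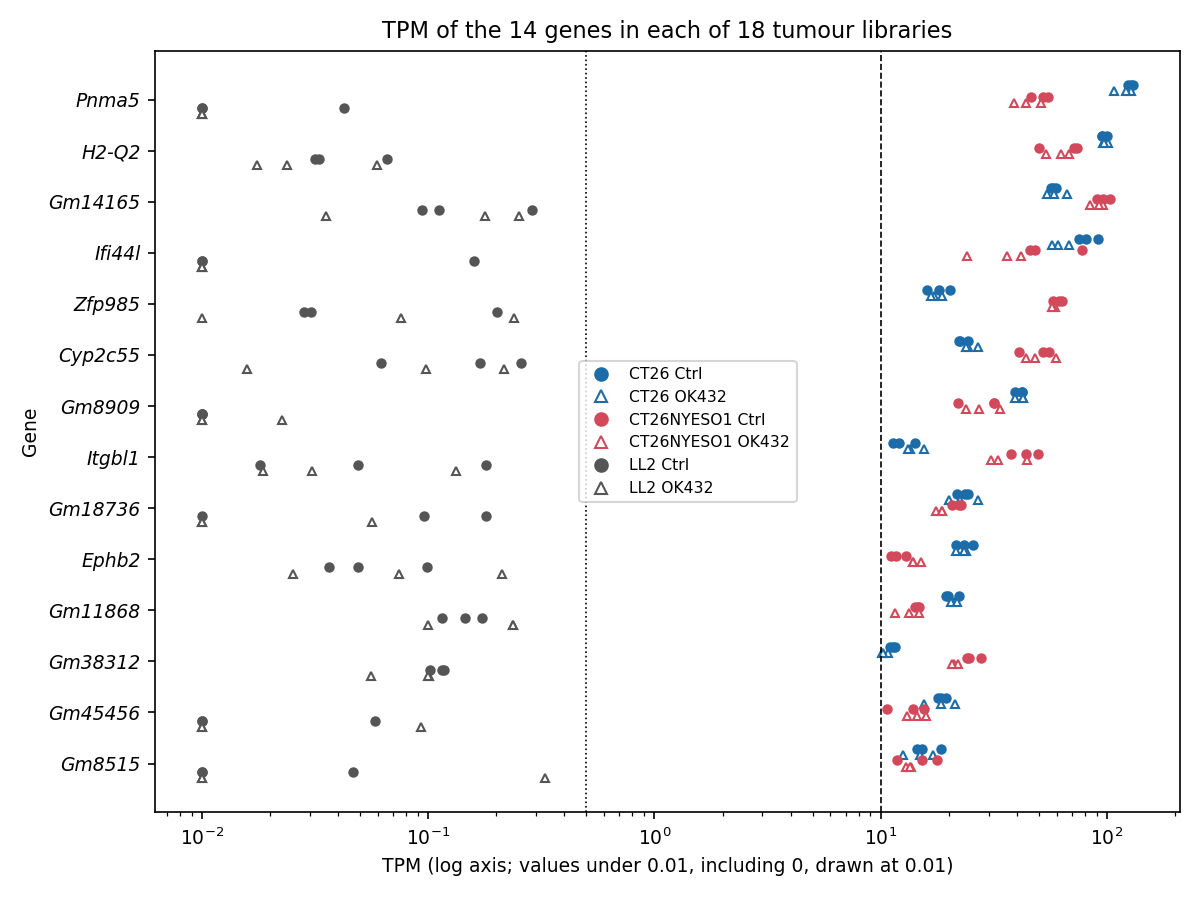
TPM on a log axis for each of the 14 genes in the 18 libraries, coloured by tumour type, with filled circles for Ctrl and open triangles for OK432 and with the 10 TPM (dashed) and 0.5 TPM (dotted) thresholds. LL2 points lie at or below 0.327 TPM and CT26-line points between 10.2 and 131 TPM, and points under 0.01 TPM, including 0, are drawn at 0.01.

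Just inside the 10 TPM threshold were Gm38312, with a lowest CT26-line value of 10.2 TPM, Gm45456 (10.7) and Ephb2 (11.1). Just outside it were Gm12666 (9.97), Fbxo44 (9.37) and Gm5503 (9.04). Just inside the 0.5 TPM threshold were Gm8515, with a highest LL2 value of 0.327 TPM, Gm14165 (0.286) and Cyp2c55 (0.258), and just outside it were Gm44958 (0.577), Nrg1 (0.638) and Gm7809 (0.648). The thresholds set the number of members: 30 genes passed at 5 TPM and 6 at 20 TPM in the CT26 lines, and 4 passed with under 0.1 TPM and 22 with under 1 TPM in LL2.

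The comparison of CT26NYESO1 with CT26 was not used to choose the genes, and it asked how far the 14 genes differed between these related lines. Without OK-432, 12 of the 14 differed at a Benjamini-Hochberg adjusted p under 0.05 in limma, 5 higher and 7 lower in CT26NYESO1, where 64.9% of the 16816 genes tested differed, 21.1% higher and 43.9% lower. With OK-432, 13 of the 14 differed, 5 higher and 8 lower, against 66.5% of all genes, 20.9% higher and 45.6% lower. Zfp985, Itgbl1, Cyp2c55, Gm38312 and Gm14165 were higher in CT26NYESO1 in both comparisons, and Pnma5, Ephb2, H2-Q2, Gm8909, Ifi44l, Gm11868 and Gm45456 were lower in both. Gm8515 was called in neither and Gm18736 only with OK-432. Most genes tested were called as well, so the counts of members are not particular to them. The median absolute log2 difference was 0.65 and 0.66 among members and 0.41 and 0.43 among all genes tested. Members had at least 10 TPM and other genes needed only 1 TPM in 3 libraries, so these medians are not matched for level. The median difference itself was −0.29 and −0.32 among members and −0.18 and −0.20 among all genes. Values of the groups did not overlap for 11 members without OK-432 and for 12 with it, where 67.5% and 69.9% of all genes did not overlap.

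The direction of these counts depends on the scaling. Median-of-ratios rescaling moved the median of all genes by 0.18 without OK-432 and by 0.20 with it, and quantile normalization by 0.20 and 0.21. Among all genes called without OK-432 the higher share was 32.5% in the deposited scaling, 49.6% with median-of-ratios factors and 51.8% with quantile normalization. With OK-432 it was 31.5%, 49.2% and 50.6%. No called member changed direction, and 10 and 11 members remained called under either rescaling. After median-of-ratios rescaling the calls of Gm45456 (−0.25, adjusted p = 0.0901) and Ifi44l (−0.34, adjusted p = 0.108) ended without OK-432, and those of Gm45456 (−0.09, adjusted p = 0.554) and Gm18736 (−0.08, adjusted p = 0.485) ended with it. A pseudocount of 0.1 ended the same calls without OK-432, for Gm45456 (−0.49, adjusted p = 0.0944) and Ifi44l (−0.56, adjusted p = 0.117). With OK-432 it ended those of Gm45456 (−0.33, adjusted p = 0.245), Gm18736 (−0.33, adjusted p = 0.302) and Gm14165 (0.61, adjusted p = 0.0681). The CT26 lines also differed in other cells: the fibroblast list of 7 genes summed to 6218 to 9411 TPM in CT26 and 1265 to 1873 TPM in CT26NYESO1, the endothelial list of 6 genes to 235 to 329 and 48.9 to 87.2 TPM, and the adipocyte list of 5 genes to 635 to 754 and 36.3 to 61.4 TPM. The T cell list of 9 genes summed to 25.2 to 40.9 TPM in CT26 and 42.5 to 94.8 TPM in CT26NYESO1. The part of these cells in the differences was not tested.

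**Figure D2:**
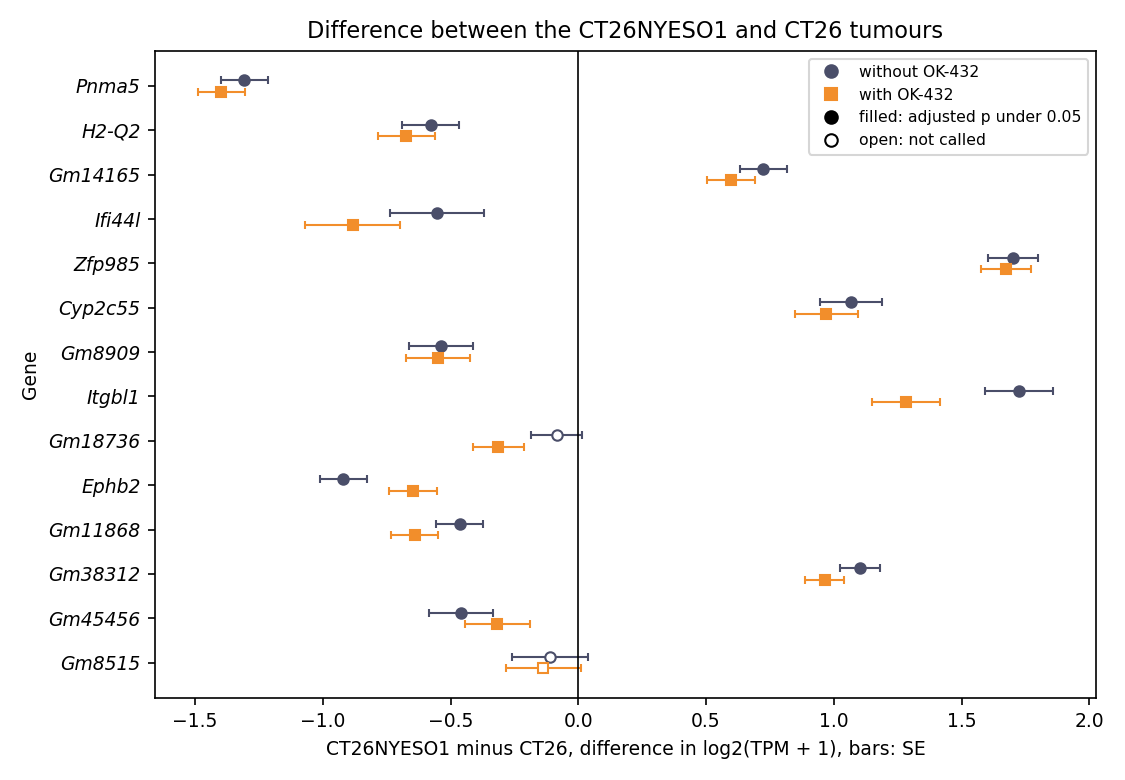
Difference in log2(TPM + 1) between CT26NYESO1 and CT26 tumours for each of the 14 genes (horizontal axis), without OK-432 (circles) and with it (squares), with bars of 1 SE and filled symbols for an adjusted p under 0.05. Zfp985 and Itgbl1 lie farthest to the right, at 1.28 to 1.72, and Pnma5 farthest to the left, at −1.31 and −1.40.

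Among the pseudogenes, 4 had a match of over 95% identity to an expressed gene along nearly their whole length. For each, the 120 bases with the most differing positions are shown, among stretches aligned without a gap. Other stretches of the same length differ by as many letters or fewer. Each pair is written 5′ to 3′ from GENCODE M21 transcripts of the GRCm38 (mm10) reference, with capitals at the positions where the sequences shown together differ. All stretches of the protein-coding genes lie within their coding sequence. The stretch of Gm45456 lies at chr7:140315828-140315947 on the plus strand and is set beside Abracl, a small protein linked to actin dynamics.
Gm45456: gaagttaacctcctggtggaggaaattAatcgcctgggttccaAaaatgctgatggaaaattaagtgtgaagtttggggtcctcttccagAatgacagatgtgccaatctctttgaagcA
Abracl: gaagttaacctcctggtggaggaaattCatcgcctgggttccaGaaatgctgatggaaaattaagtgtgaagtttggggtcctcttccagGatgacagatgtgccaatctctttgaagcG
The stretch of Gm11868 lies at chr4:18845531-18845650 on the minus strand and is set beside Cyb5r4, a cytochrome b5 reductase.
Gm11868: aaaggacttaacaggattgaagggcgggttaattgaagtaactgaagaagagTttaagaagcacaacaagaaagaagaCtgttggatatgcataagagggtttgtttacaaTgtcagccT
Cyb5r4: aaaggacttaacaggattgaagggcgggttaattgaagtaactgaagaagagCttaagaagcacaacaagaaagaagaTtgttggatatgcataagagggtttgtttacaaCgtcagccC
The stretch of Gm8515 lies at chr3:67607623-67607742 on the minus strand and is set beside Chmp1a, a subunit of the ESCRT-III membrane remodelling complex.
Gm8515: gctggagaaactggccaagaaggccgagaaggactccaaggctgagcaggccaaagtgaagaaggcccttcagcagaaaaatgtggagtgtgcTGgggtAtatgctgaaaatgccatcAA
Chmp1a: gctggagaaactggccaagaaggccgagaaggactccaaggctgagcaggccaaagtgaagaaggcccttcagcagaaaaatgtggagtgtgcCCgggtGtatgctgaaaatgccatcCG
The stretch of Gm14165 lies at chr2:152354096-152354215 on the plus strand and is set beside Rplp0, a protein of the ribosomal stalk, and beside Gm8730 and Gm9625, processed pseudogenes of the same family.
Gm14165: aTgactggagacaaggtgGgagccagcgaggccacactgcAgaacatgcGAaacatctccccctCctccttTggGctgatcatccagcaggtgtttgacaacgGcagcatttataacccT
Rplp0: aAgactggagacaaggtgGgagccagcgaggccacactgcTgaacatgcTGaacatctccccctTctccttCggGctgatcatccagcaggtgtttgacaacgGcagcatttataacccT
Gm8730: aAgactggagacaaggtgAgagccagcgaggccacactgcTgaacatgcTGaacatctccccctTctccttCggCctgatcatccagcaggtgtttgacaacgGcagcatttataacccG
Gm9625: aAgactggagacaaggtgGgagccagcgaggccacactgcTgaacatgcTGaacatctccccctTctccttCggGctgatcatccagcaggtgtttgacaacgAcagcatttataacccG

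Gm45456, a 243-base model on chromosome 7 among olfactory receptor genes, differed from Abracl by 5 substitutions and no gap. Gm11868 was 98.0% identical to Cyb5r4 over 1485 alignment columns, Gm8515 96.1% identical to Chmp1a over 584, and Gm14165 97.2% identical to Rplp0 over 954. The longest stretch shared letter for letter with the protein-coding gene ran for 59 bases in Gm45456, 150 in Gm11868, 130 in Gm8515 and 84 in Gm14165, and 164 bases were shared by Gm14165 and Gm8730. The deposited values do not show which reads were assigned to which copy, so the levels of these 4 pseudogenes are uncertain.

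Gm45456 stood at 19.4, 18.003 and 18.5 TPM in the CT26 Ctrl libraries and 21.3, 18.4 and 15.5 TPM with OK-432. CT26NYESO1 tumours held 10.7, 15.6 and 13.9 TPM in the Ctrl libraries and 15.9, 14.5 and 13.1 TPM with OK-432. The lines did not overlap without OK-432 and overlapped with it. Abracl had 102.1 to 115 TPM in CT26, 70.1 to 80.4 TPM in CT26NYESO1 and 90.9 to 102.4 TPM in LL2, so the source gene was present in all 3 tumour types while the pseudogene was at or under 0.0928 TPM in LL2. The share of Gm45456 in the summed TPM of the pair was 14.8% ± 1.42 in CT26 and 15.6% ± 2.11 in CT26NYESO1 (SD, n = 6 each, Ctrl and OK432 libraries together), and 0.0246% ± 0.0397 in LL2. The sum itself was 125 ± 5.004 TPM in CT26, 89.6 ± 4.42 TPM in CT26NYESO1 and 98.3 ± 5.05 TPM in LL2 (SD, n = 6 each), while Abracl alone was at 106 ± 4.65, 75.7 ± 4.50 and 98.3 ± 5.03 TPM.

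For Gm11868 the values were 19.7, 22.1 and 19.4 TPM in CT26 Ctrl and 20.98, 20.4 and 21.7 TPM in CT26 OK432, against 14.7, 14.2 and 14.6 and 14.8, 13.3 and 11.5 TPM in the CT26NYESO1 groups, so every CT26NYESO1 library lay below every CT26 library. Its share in the sum with Cyb5r4 was 33.9% ± 1.501 in CT26, 34.6% ± 1.89 in CT26NYESO1 and 0.288% ± 0.105 in LL2. Cyb5r4 itself had 40.3, 25.5 and 59.2 TPM as the medians of CT26, CT26NYESO1 and LL2. The sum of both was 61.1 ± 1.46 TPM in CT26 and 58.7 ± 1.93 TPM in LL2 (SD, n = 6 each). In CT26NYESO1 it was 40.02 ± 2.33 TPM, below both.

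Gm8515 had 15.3, 14.5 and 18.5 TPM in CT26 Ctrl, 12.5, 14.9 and 17.1 in CT26 OK432, 17.8, 11.8 and 15.2 in CT26NYESO1 Ctrl and 12.9, 13.6 and 13.5 in CT26NYESO1 OK432, and the groups overlapped. It made up 14.8% ± 1.54 of the sum with Chmp1a in CT26, 15.3% ± 1.47 in CT26NYESO1 and 0.0373% ± 0.0786 in LL2, where 1 OK432 library held the highest value of any member (0.327 TPM) and 4 of the 6 libraries were listed at 0. The sum was 169 ± 6.21 TPM in LL2, 104 ± 7.04 TPM in CT26 and 92.1 ± 5.43 TPM in CT26NYESO1.

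Gm14165 was the most abundant of the 5 pseudogenes, at 59.6, 57.9 and 56.4 TPM in CT26 Ctrl, 54.2, 58.3 and 66.7 in CT26 OK432, 96.04, 103 and 90.5 in CT26NYESO1 Ctrl and 84.1, 95.6 and 92.5 in CT26NYESO1 OK432. Every CT26NYESO1 library lay above every CT26 library. The other copies were similar in pattern and larger: Gm8730 had median TPM of 1015 in CT26, 1586 in CT26NYESO1 and 5.32 in LL2, and Gm9625 had 126, 198 and 1.94. Neither met the rule, since both exceeded 0.5 TPM in LL2. Rplp0 held 65.7% ± 0.330 of the summed TPM of these 4 genes in CT26, 65.3% ± 0.740 in CT26NYESO1 and 99.8% ± 0.0265 in LL2. The sum was 3471 ± 168 TPM in CT26, 5241 ± 436 TPM in CT26NYESO1 and 3434 ± 81.8 TPM in LL2. Rplp0 alone was at 2280.4 ± 113, 3421 ± 300.1 and 3426 ± 81.7 TPM, so the sum was close to LL2 in CT26 and Rplp0 alone was close to LL2 in CT26NYESO1.

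The share of each of these 4 pseudogenes in its summed TPM did not differ detectably between CT26NYESO1 and CT26. The differences were 0.739 percentage points for Gm45456, 0.680 for Gm11868, 0.487 for Gm8515 and 0.0953 for Gm14165, with p = 0.487, 0.502, 0.576 and 0.0931 by exact permutation (two-sided, 924 assignments of the libraries) and adjusted p = 0.576, 0.576, 0.576 and 0.372 over the 4 tests. The levels themselves moved with the source gene between the lines. Without OK-432, Gm14165 differed by 0.72 ± 0.09 (SE, adjusted p = 2.95e-06) and Rplp0 by 0.60 ± 0.07 (SE, adjusted p = 2.32e-06). Gm45456 differed by −0.46 ± 0.13 (SE, adjusted p = 0.00441) and Abracl by −0.43 ± 0.07 (SE, adjusted p = 1.75e-05). Gm11868 differed by −0.46 ± 0.09 (SE, adjusted p = 0.000292) and Cyb5r4 by −0.57 ± 0.05 (SE, adjusted p = 8.69e-08). After median-of-ratios rescaling the difference of Gm11868 was −0.26 (adjusted p = 0.0145). Gm8515 was not called, at −0.11 ± 0.15 (SE, adjusted p = 0.53), beside Chmp1a at −0.15 ± 0.06 (SE, adjusted p = 0.0477). With OK-432 the call of Gm45456 (−0.32 ± 0.13 SE, adjusted p = 0.0361) ended without CT26 OK432 replicate 1 (−0.21, adjusted p = 0.186) or 2 (−0.31, adjusted p = 0.0788) and without CT26NYESO1 OK432 replicate 2 (−0.32, adjusted p = 0.0687) or 3 (−0.25, adjusted p = 0.135). The plot of shares shows the flat percentages in the CT26 lines beside the change in TPM.

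**Figure D3:**
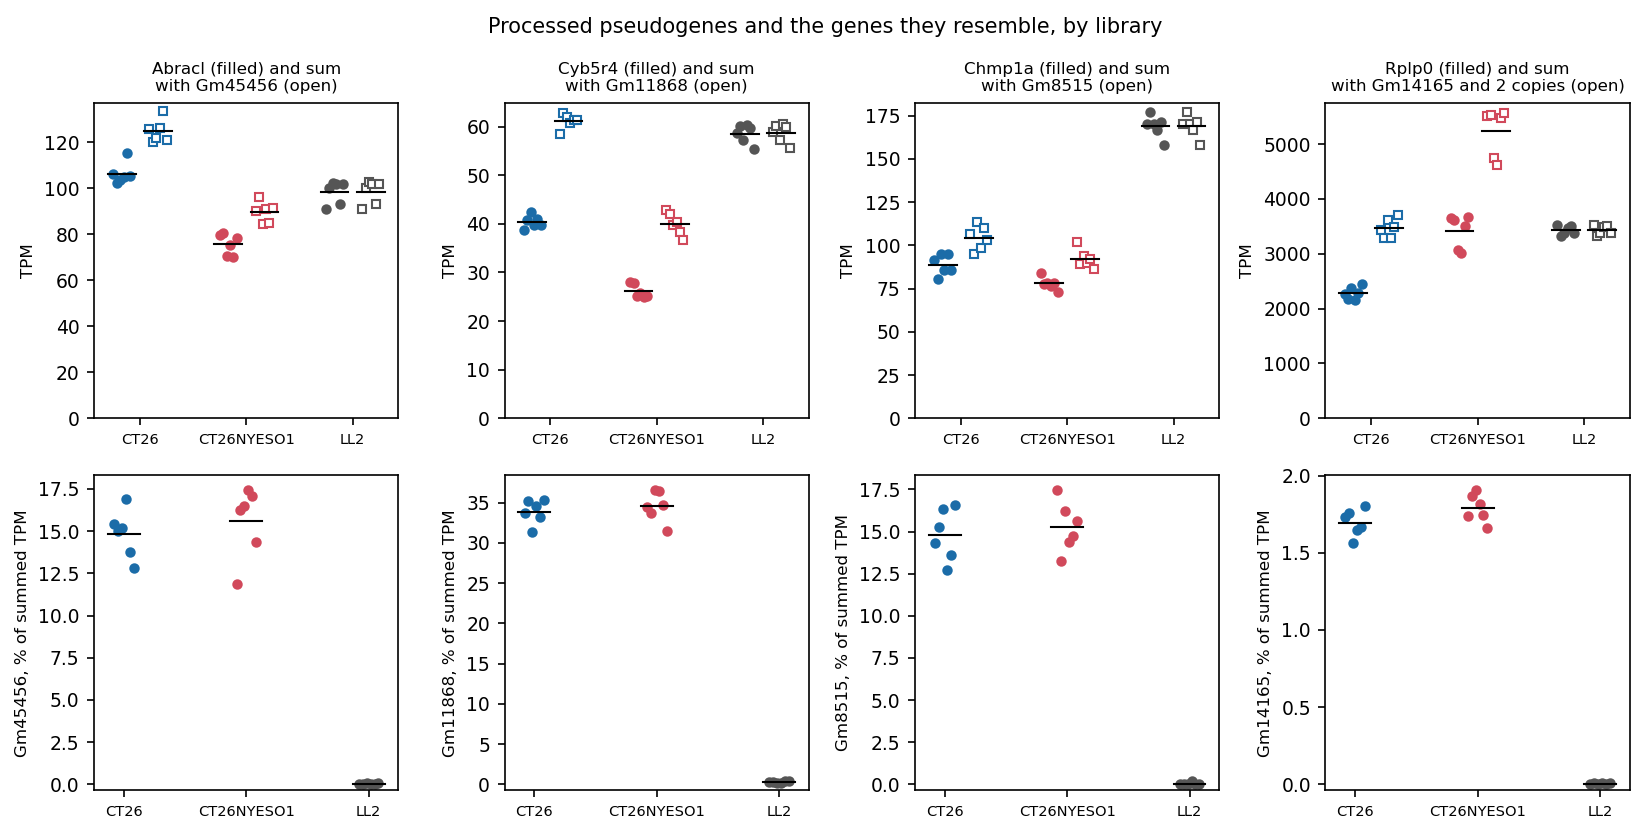
Upper panels: TPM of the source gene (filled) and of its sum with the pseudogene (open; for Gm14165 also with Gm8730 and Gm9625) in the 6 libraries of each tumour type, with a line at the mean. Lower panels: share of the pseudogene in that sum in percent, near 0 in LL2 and at means of 14.8% to 15.6%, 33.9% to 34.6%, 14.8% to 15.3% and 1.70% to 1.79% in the CT26 lines, from left to right.

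Gm18736, on chromosome 17 from 65438128 to 65438697 in RefSeq GRCm38.p6, was not compared with other transcripts. It had 21.6, 23.6 and 24.4 TPM in CT26 Ctrl, 22.5, 20.03 and 26.997 in CT26 OK432, 22.7, 20.7 and 22.1 in CT26NYESO1 Ctrl and 17.6, 18.6 and 18.7 in CT26NYESO1 OK432. The CT26 groups and the CT26NYESO1 controls overlapped, and the treated CT26NYESO1 libraries lay below all others. The difference between the lines was not called without OK-432, at −0.08 ± 0.10 (SE, adjusted p = 0.479), and was called with it, at −0.31 ± 0.10 (SE, adjusted p = 0.011). That call ended without CT26 OK432 replicate 3 (−0.20, adjusted p = 0.0854) and after rescaling, as given above.

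H2-Q2 (chromosome 17, 35342242 to 35346762, plus strand) and Gm8909 (chromosome 17, 36164443 to 36168537, minus strand), for which RefSeq lists the synonyms H2-gs17 and H2-Tw5l, lie in the class I region of the mouse major histocompatibility complex. Class I molecules present peptides at the cell surface together with beta-2 microglobulin, encoded by B2m, and the Q and T genes encode mostly less variable, nonclassical forms. Whether the sequence upstream of these genes plays a part in their levels was not tested. Stretches upstream of both are shown, read from RefSeq GRCm38.p6, the C57BL/6J reference, and not from these BALB/c tumours. Each is the part of the 250 bases before the RefSeq start that lies farthest from that start. They were 96.7% identical over 180 alignment columns. Capitals mark TATAAA and CCAAT, the letters of the TATA and CCAAT boxes, on either strand. The stretch of H2-Q2 lies at chr17:35342057-35342241 on the plus strand and that of Gm8909 at chr17:36168608-36168787 on the minus strand.
H2-Q2: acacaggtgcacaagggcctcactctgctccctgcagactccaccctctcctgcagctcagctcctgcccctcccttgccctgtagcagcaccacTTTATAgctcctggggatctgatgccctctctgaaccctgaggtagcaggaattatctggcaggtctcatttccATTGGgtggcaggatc
Gm8909: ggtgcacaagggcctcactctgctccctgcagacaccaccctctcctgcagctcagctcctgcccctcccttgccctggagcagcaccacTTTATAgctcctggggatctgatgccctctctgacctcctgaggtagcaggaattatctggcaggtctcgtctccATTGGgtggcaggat

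In the whole 250 bases before the RefSeq start, each of these genes held 2 TATAAA and 1 CCAAT on either strand, where 12.4% and 33.9% of 32851 windows of that length held at least 1. Neither held the core of the interferon-stimulated response element (2 GAAA repeats a pair of bases apart) or TTCNNNGAA, the gamma-activated site, which 2.98% and 7.02% of the windows held on either strand. These letters are matches only, and the absence of a match covers only these windows. For H2-Q2 the window ends at 35342306, past the GENCODE start of 35342242 given above, so its last part lies inside the GENCODE gene.

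H2-Q2 stood at 95.1, 99.6 and 94.7 TPM in the CT26 Ctrl libraries and 95.8, 101 and 97.4 TPM with OK-432. For CT26NYESO1 the values were 74.02, 50.1 and 71.6 TPM in the Ctrl libraries and 68.2, 62.5 and 53.7 TPM with OK-432. All 6 CT26 libraries lay above all 6 CT26NYESO1 libraries, and in LL2 it stayed between 0.0176 and 0.0658 TPM. Its line difference was −0.58 ± 0.11 (SE) on the log2 scale without OK-432 (adjusted p = 0.000257) and −0.67 ± 0.11 with it (adjusted p = 5.49e-05). Gm8909 had 39.1, 42.2 and 42.2 TPM in CT26 Ctrl, 42.4, 42.5 and 39.4 in CT26 OK432, 31.6, 21.98 and 31.7 in CT26NYESO1 Ctrl and 33.8, 27.3 and 23.7 in CT26NYESO1 OK432, again with no overlap between the lines, and it was listed at 0 in 5 of 6 LL2 libraries. Its line difference was −0.54 ± 0.13 (SE) on the log2 scale without OK-432 (adjusted p = 0.00134) and −0.55 ± 0.13 with it (adjusted p = 0.00108). In CT26NYESO1 Ctrl replicate 2 both genes were lowest of their group. Over the 12 CT26-line libraries the deviations of both genes from their group means had a Pearson r of 0.942, a description over libraries that share scaling. Their transcripts are 85.7% identical over 1087 bases. Gm8909 is also 88.9% identical over 1065 bases to H2-D1, which had 972 to 2522 TPM in the CT26 lines. Reads may therefore be divided between these genes, and the level of Gm8909 is uncertain. After median-of-ratios rescaling the differences were smaller by over 1.5 times, at −0.36 (adjusted p = 0.0088) and −0.43 (adjusted p = 0.00244) for H2-Q2 and −0.32 (adjusted p = 0.0298) and −0.31 (adjusted p = 0.0343) for Gm8909.

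The 10 other genes examined were the remaining Q genes, the classical class I genes and B2m. All but H2-Q10 had at least 1 TPM in all 6 LL2 libraries. All but H2-D1 lay higher in every CT26-line library than in any LL2 library. Among all genes the share in that order was not counted, here and for the integrin genes below. H2-K1, a classical gene, had 274 to 660.0 TPM in LL2, B2m had 1105 to 2110 TPM, and H2-Q1, the neighbour of H2-Q2, had 2.22 to 5.32 TPM in LL2, 55.6 to 59.98 TPM in CT26 and 38.9 to 60.4 TPM in CT26NYESO1. H2-Q1 shares 93.2% of letters with H2-Q2 over 1168 bases, so reads may be divided between them. The lower level of H2-Q2 in CT26NYESO1 was not shared by all of these genes: H2-D1 was higher there, by 1.09 ± 0.22 (SE, adjusted p = 0.000457) without OK-432, as was H2-Q4, by 0.86 ± 0.30 (SE, adjusted p = 0.0233), and of the 10 genes 2 were called higher and 1 lower without OK-432 and 2 higher and 2 lower with it. On the side of Gm8909, 8 of 20 H2-T and H2-M genes could be tested, and 3 were called lower without OK-432 and 5 with it. Of all genes tested, 21.1% were called higher and 43.9% lower without OK-432, and 20.9% and 45.6% with it. Counts of related genes, here and below, were not repeated after rescaling. These lists were chosen after the members were known.

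Ifi44l (chromosome 3, 151758737 to 151762892, minus strand) belongs to the genes induced by type I interferon. It stood at 80.5, 90.9 and 74.9 TPM in the CT26 Ctrl libraries and 60.9, 67.99 and 57.1 TPM with OK-432. The CT26NYESO1 tumours had 77.8, 45.7 and 47.9 TPM in the Ctrl libraries and 41.6, 36.2 and 24.02 TPM with OK-432. The CT26NYESO1 control libraries spread widely, with replicate 1 inside the CT26 range. In LL2 it was listed at 0 in 5 of 6 libraries and at 0.159 TPM in 1 control. Ifi44l differed between the lines by −0.55 ± 0.19 (SE) on the log2 scale without OK-432 (adjusted p = 0.0156) and −0.88 ± 0.19 with it (adjusted p = 0.000517). The call without OK-432 ended without CT26 Ctrl replicate 2 (−0.48, adjusted p = 0.0618) and without CT26NYESO1 Ctrl replicate 2 (−0.42, adjusted p = 0.082) or 3 (−0.45, adjusted p = 0.0714).

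Ifi44, the adjacent gene 8777 bases away and also interferon-induced, was present in LL2 at 3.94 to 36.6 TPM and in CT26 and CT26NYESO1 at 127 to 213 and 61.7 to 149 TPM. Of 15 genes of interferon signalling and response chosen after the members were known, 14 had at least 1 TPM in every LL2 library, among them Isg15, a ubiquitin-like modifier, at 20.3 to 129 TPM and Irf7, an interferon regulatory factor, at 17.8 to 99.7 TPM. The receptor genes Ifnar1 and Ifnar2 had 41.6 to 46.1 and 31.3 to 34.98 TPM in LL2, and Ifnb1, the ligand, stayed at or under 0.567 TPM in all 18 libraries. Low values in LL2 were thus not shared across this response. Between the lines 8 of the 14 tested were called lower in CT26NYESO1 and none higher, both without and with OK-432. Of all genes tested, 43.9% and 45.6% were called lower. Rsad2, an antiviral enzyme, differed by −2.07 without OK-432 (adjusted p = 0.000285) and −0.996 with it (adjusted p = 0.0336), and Ifit1 by −1.98 without OK-432 (adjusted p = 0.00156) and −1.94 with it (adjusted p = 0.00171). In the 250 bases before the Ifi44l start neither the response element core nor TTCNNNGAA was found on either strand. Of the 8 members with such a window, Pnma5 held 1 response element core and the others none, and TTCNNNGAA was in none of the 8.

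Pnma5 (X chromosome, 73033981 to 73037103, minus strand), of the paraneoplastic Ma antigen family, was the most abundant member in CT26. It stood at 124, 127 and 131 TPM in the CT26 Ctrl libraries and 108, 128 and 121 TPM with OK-432. Values in CT26NYESO1 were 52.2, 54.9 and 45.97 TPM in the Ctrl libraries and 51.4, 44.1 and 38.9 TPM with OK-432. CT26 and CT26NYESO1 did not overlap, and in LL2 5 of 6 libraries were listed at 0 and 1 control at 0.0426 TPM. Between the lines Pnma5 differed by −1.31 ± 0.09 (SE) on the log2 scale without OK-432 (adjusted p = 1.72e-09) and −1.40 ± 0.09 with it (adjusted p = 6.87e-10), 2.47-fold and 2.63-fold lower in CT26NYESO1 on this scale. Pnma3, which lies 27684 bases away and shares a 99.4% identical stretch of 1089 bases with Pnma5, had 2.004 to 3.12 TPM in CT26 and 0.604 to 0.867 TPM in CT26NYESO1 and was listed at 0 in all 6 LL2 libraries. Part of either value may belong to the other gene. Pnma1 and Pnma2, on other loci, were present in LL2 at 1.59 to 2.30 and 1.27 to 2.09 TPM, and Pnma2 was listed at 0 in the CT26 lines. Of the 6 nearest protein-coding neighbours, 2 had at least 1 TPM in every LL2 library. They were Cetn2 and Nsdhl, with medians of 30.2 and 23.3 TPM in LL2 against 49.5 and 50.5 TPM over the 12 CT26-line libraries. Zfp185, the nearest gene, had medians of 0 and 0.452 TPM, and Xlr3a had 0.282 and 31.3 TPM, with CT26-line values from 0 to 71.9 TPM.

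Zfp985 (chromosome 4, 147553277 to 147585198, plus strand) is one of a cluster of zinc finger genes, a family that includes many repressors of transcription. It stood at 15.98, 18.1 and 20.2 TPM in the CT26 Ctrl libraries and 17.1, 18.6 and 16.7 TPM with OK-432. In CT26NYESO1 it reached 57.8, 63.3 and 61.3 TPM in the Ctrl libraries and 58.8, 57.6 and 57.4 TPM with OK-432. The CT26NYESO1 libraries were tightly grouped and far above the CT26 libraries, and LL2 stayed at or under 0.241 TPM. CT26NYESO1 minus CT26 gave 1.70 ± 0.10 (SE) on the log2 scale without OK-432 (adjusted p = 1.54e-10) and 1.68 ± 0.10 with it (adjusted p = 1.76e-10), 3.25-fold and 3.19-fold higher in CT26NYESO1 on this scale.

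The low level in LL2 was shared by some neighbours of Zfp985 and not by others. Within 1 Mb lie 32 protein-coding genes of the table, of which 21 had all CT26-line libraries above all LL2 libraries. The share of all genes in that order was not counted. Of the 11 zinc finger genes among them (Rex2 counted), 6 stayed under 0.5 TPM in every LL2 library, and so did 5 of the other 21. In the whole table, 36997 of 55291 genes of any type did so. The share among protein-coding genes alone was not counted, so whether these counts are particular to the region was not tested. Some of the genes counted, Zfp989, Gm21411, Disp3 and Nppa, were under 0.5 TPM in every CT26-line library as well. Zfp978 had 4.42 to 6.70 TPM in CT26, 18.95 to 26.3 TPM in CT26NYESO1 and 0.0598 to 0.271 TPM in LL2, and Zfp982 had 2.07 to 3.79, 7.51 to 10.1 and 0.0678 to 0.224 TPM. Zfp988 was near 0 in CT26 as well (0.0741 to 0.484 TPM), was listed at 0 in LL2, and had 7.56 to 9.42 TPM in CT26NYESO1. These 3 were higher in CT26NYESO1 than in CT26, as Zfp985 was: Zfp988 by 2.91 without OK-432 (adjusted p = 2.26e-12) and 2.97 with it (adjusted p = 1.6e-12), Zfp978 by 1.74 without OK-432 (adjusted p = 7.81e-09) and 1.97 with it (adjusted p = 1.47e-09) and Zfp982 by 1.31 without OK-432 (adjusted p = 3.05e-07) and 1.23 with it (adjusted p = 6.29e-07). Zfp979, the nearest gene on the other side, had 1.45 to 1.89 TPM in LL2, 22.4 to 24.7 TPM in CT26 and 26.5 to 30.5 TPM in CT26NYESO1, with line differences of 0.21 without OK-432 (adjusted p = 0.0221) and 0.28 with it (adjusted p = 0.00424). Zfp984, farther on that side, was lower in CT26NYESO1 as deposited, with differences of −0.33 without OK-432 (adjusted p = 0.00228) and −0.22 with it (adjusted p = 0.0238), beside the 0.18 and 0.20 by which median-of-ratios rescaling moved all genes, and had 14.4 to 19.14 TPM in LL2. Zfp933, which also lies close, had 8.90 to 11.4 TPM in LL2. Zfp985 resembles its relatives at 86.9% to 88.5% identity over parts of its transcript. The housekeeping kinase gene Mtor, farther along, had 22.1 to 25.7 TPM in LL2, 22.2 to 26.4 TPM in CT26NYESO1 and 37.5 to 39.3 TPM in CT26.

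**Figure D4:**
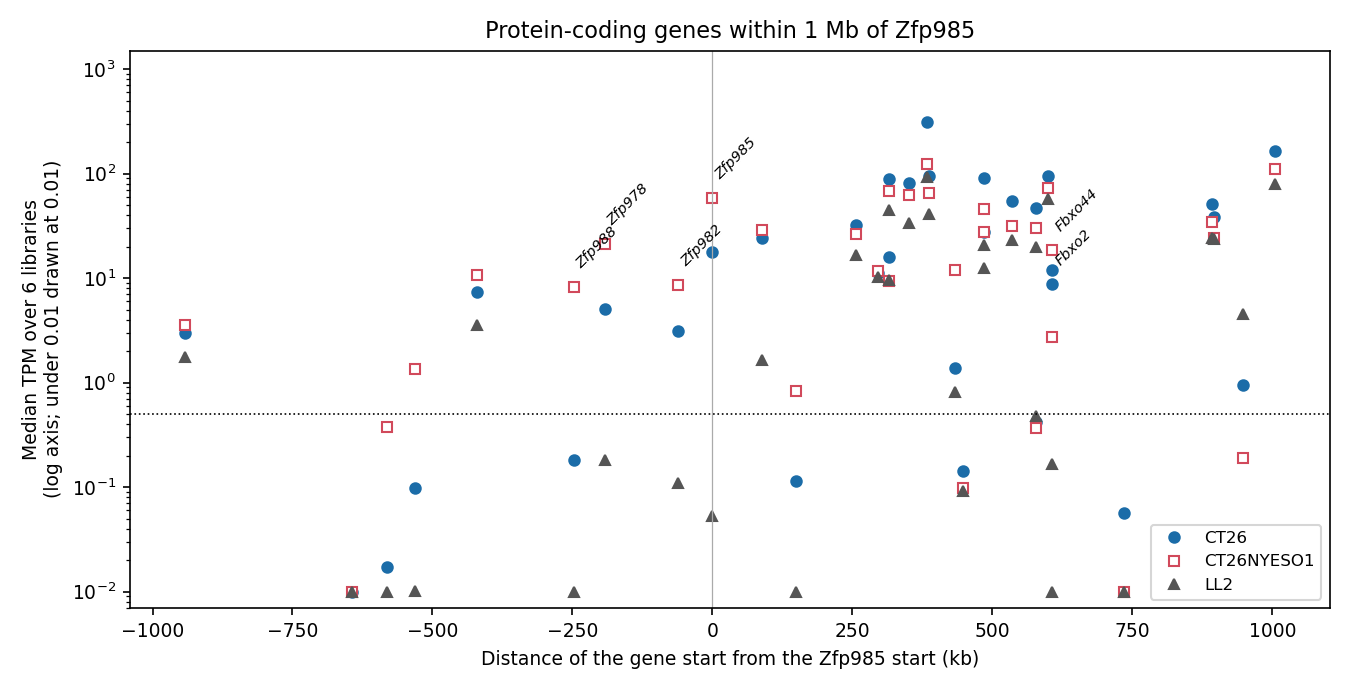
Median TPM over the 6 libraries of each tumour type (vertical log axis, values under 0.01 drawn at 0.01) for Zfp985 and the 32 protein-coding genes within 1 Mb, by the distance of each start from the Zfp985 start in kb, with a dotted line at 0.5 TPM. LL2 medians of Zfp988, Zfp978, Zfp982 and Zfp985 lie at or below 0.18 TPM while those of Mtor and many genes to the right are above 10 TPM.

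Cyp2c55 (chromosome 19, 39007019 to 39042693, plus strand) encodes a cytochrome P450 of the fatty acid and drug metabolising 2C family. It stood at 24.2, 22.2 and 22.3 TPM in the CT26 Ctrl libraries and 24.4, 23.8 and 27.001 TPM with OK-432. The level in CT26NYESO1 was 40.9, 52.2 and 55.2 TPM in the Ctrl libraries and 59.4, 43.9 and 48.1 TPM with OK-432. All CT26NYESO1 libraries lay above all CT26 libraries, and LL2 held 0.0159 to 0.258 TPM. The line difference was 1.07 ± 0.12 (SE) on the log2 scale without OK-432 (adjusted p = 8.28e-07) and 0.97 ± 0.12 with it (adjusted p = 2.32e-06). The 14 other Cyp2c genes of the table were under 1 TPM in all 18 libraries, so Cyp2c55 was the only one of its family above that level. Its neighbours on one side, Hells, Tbc1d12 and Noc3l, had LL2 medians of 49.2, 10.7 and 34.8 TPM, and those on the other side, Cyp2c65, Cyp2c66 and Cyp2c29, had LL2 medians of 0.

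Itgbl1 (chromosome 14, 123659971 to 123975618, plus strand) encodes a secreted protein with repeats like those of integrin beta subunits. It stood at 12.04, 14.2 and 11.4 TPM in the CT26 Ctrl libraries and 15.5, 13.5 and 13.2 TPM with OK-432. CT26NYESO1 libraries showed 44.01, 49.5 and 37.8 TPM in the Ctrl libraries and 30.6, 44.4 and 33.1 TPM with OK-432. The CT26NYESO1 libraries spread from 30.6 to 49.5 TPM, all above CT26, and LL2 held 0.018 to 0.18 TPM. The line difference was 1.72 ± 0.13 (SE) on the log2 scale without OK-432 (adjusted p = 6.6e-09) and 1.28 ± 0.13 with it (adjusted p = 2.47e-07), 3.31-fold and 2.43-fold higher in CT26NYESO1 on this scale. Of 8 integrin beta genes, 6 had at least 1 TPM in every LL2 library and 1 lay higher in every CT26-line library than in LL2. Itgb1, the most widely used beta subunit, had 453 to 530.4 TPM in LL2 and 458 to 513 TPM in CT26. Between the lines 1 of the 8 was called higher and 5 lower without OK-432, and 3 higher and 5 lower with it. Among all genes tested the shares were 21.1% higher and 43.9% lower without OK-432, and 20.9% and 45.6% with it. Itgbl1 itself therefore went in the direction of the minority.

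Ephb2 (chromosome 4, 136647539 to 136835988, minus strand) encodes a receptor tyrosine kinase that binds ephrin-B ligands and is known in the colon for sorting cells along the crypt. It stood at 23.3, 25.5 and 21.5 TPM in the CT26 Ctrl libraries and 23.8, 23.4 and 21.4 TPM with OK-432. In CT26NYESO1 tumours it was at 11.7, 11.1 and 12.97 TPM in the Ctrl libraries and 13.8, 15.01 and 13.9 TPM with OK-432. The lines did not overlap, with CT26 higher, and LL2 held 0.0252 to 0.212 TPM. The line difference was −0.92 ± 0.09 (SE) on the log2 scale without OK-432 (adjusted p = 1.85e-07) and −0.65 ± 0.09 with it (adjusted p = 1.07e-05), and with OK-432 it was −0.42 (adjusted p = 0.000858) after median-of-ratios rescaling. Among the other receptors, Ephb4 had 48.5 to 63.6 TPM in CT26, 26.4 to 34.2 TPM in CT26NYESO1 and 14.6 to 17.2 TPM in LL2, and Ephb3 had 0.273 to 0.462, 5.09 to 8.89 and 6.29 to 11.1 TPM. Ephb3 was thus low in CT26 and present in CT26NYESO1 and LL2, and its line difference was 2.55 without OK-432 (adjusted p = 1.5e-09) and 2.62 with it (adjusted p = 9.67e-10). Ephb6 was under 0.2 TPM in the CT26 lines and had 3.65 to 6.51 TPM in LL2. Of the ligands, Efnb2 had 59.2 to 76.3, 28.98 to 38.8 and 13.8 to 18.9 TPM in CT26, CT26NYESO1 and LL2. Of these 7 receptors and ligands 1 was called higher in CT26NYESO1 and 4 lower, both without and with OK-432. Among all genes tested, 21.1% and 20.9% were called higher and 43.9% and 45.6% lower.

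Gm38312 (chromosome 1, 89097073 to 89098818, plus strand) is a model that GENCODE marks as still to be experimentally tested. It had 11.4, 11.5 and 11.03 TPM in CT26 Ctrl, 10.2, 10.8 and 10.2 in CT26 OK432, 24.01, 27.7 and 24.7 in CT26NYESO1 Ctrl and 21.1, 21.96 and 20.6 in CT26NYESO1 OK432. In LL2 it had 0.0561 to 0.117 TPM and was above 0 in every library. The line difference was 1.10 ± 0.08 (SE) on the log2 scale without OK-432 (adjusted p = 1.7e-09) and 0.97 ± 0.08 with it (adjusted p = 8.65e-09). Its closest transcripts matched at 92.6% identity over 1295 bases (Vmn2r97) or at lower identity, and the 5 closest stayed under 2 TPM in all 18 libraries. The nearest neighbour on one side, Arl4c, had medians of 77.5 TPM in LL2 and 76.3 TPM over the 12 CT26-line libraries, and the nearest on the other side, Agap1, had 15.4 and 9.34 TPM.

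The genes around the members were counted as well, with no test. Of 82 protein-coding neighbours, up to 3 on each side of each member, 43 (52.4%) had at least 1 TPM in all 6 LL2 libraries, against 54.2% of the 21535 protein-coding genes of the table. In the CT26 lines 46 (56.1%) did so in all 12 libraries, against 52.1%. The reverse pattern, at least 10 TPM in all LL2 libraries and under 0.5 TPM in all 12 of the CT26 lines, held for 17 genes without any left out by name.

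The other question was whether OK-432 changed these genes within the CT26 lines. No member was called by limma in CT26, where the count over all 16816 genes was 0 (0%). An unadjusted p under 0.05 was reached by 689 genes, 1 of them a member. No member was called in CT26NYESO1, where 112 genes (0.666%) were called, 0.41% higher and 0.256% lower. There 2727 of the 16816 genes, 5 of them members, had an unadjusted p under 0.05. The number of all genes called there ran from 4 to 673 as any 1 library was left out. The difference between these effects was called for 0 genes (0%), with 1486 genes and 1 member, Itgbl1, at an unadjusted p under 0.05. Both effects were measured against controls that the line comparison without OK-432 also used.

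Ifi44l had the largest OK-432 difference of the members in both lines, at −0.40 ± 0.19 (SE, adjusted p = 1) in CT26 and −0.73 ± 0.19 (SE, adjusted p = 0.0736) in CT26NYESO1. The group means were 82.1 ± 8.16 and 62.01 ± 5.52 TPM in CT26 and 57.1 ± 17.9 and 33.9 ± 9.01 TPM in CT26NYESO1 (SD, n = 3 each). In both lines every treated library lay below every control. In CT26NYESO1 the difference was called without OK432 replicate 1 (−0.89, adjusted p = 0.0441) or 2 (−0.79, adjusted p = 0.0498) and with no other library left out. Of the 14 interferon genes tested beside it none was called by limma in either line, 0 of them had an unadjusted p under 0.05 in CT26 and 0 in CT26NYESO1, and their medians were −0.35 in CT26 and −0.27 in CT26NYESO1, with 13 and 11 of them negative.

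Treated and control libraries did not overlap for 2 members in CT26, Ifi44l and Gm38312, both lower with OK-432, where 9.89% of all genes did not overlap. In CT26NYESO1 they did not overlap for 4 members, where 17% of all genes did not. Ephb2 was higher with OK-432, at 0.24 ± 0.09 (SE, adjusted p = 0.203), and Ifi44l, Gm18736 (−0.24 ± 0.10 SE, adjusted p = 0.237) and Gm38312 (−0.25 ± 0.08 SE, adjusted p = 0.125) were lower, and none of these passed the threshold. The direction differed between lines for Itgbl1, at 0.16 ± 0.13 (SE, adjusted p = 1) in CT26 and −0.28 ± 0.13 (SE, adjusted p = 0.308) in CT26NYESO1, and the difference between these effects was not called (−0.44 ± 0.19 SE, adjusted p = 0.535). For the class I genes H2-Q2 and Gm8909 the differences were 0.02 and 0.01 in CT26, with SE of 0.11 and 0.13. The median absolute difference was 0.04 among members and 0.07 among all genes in CT26, and 0.14 and 0.11 in CT26NYESO1. These medians too are not matched for level.

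**Figure D5:**
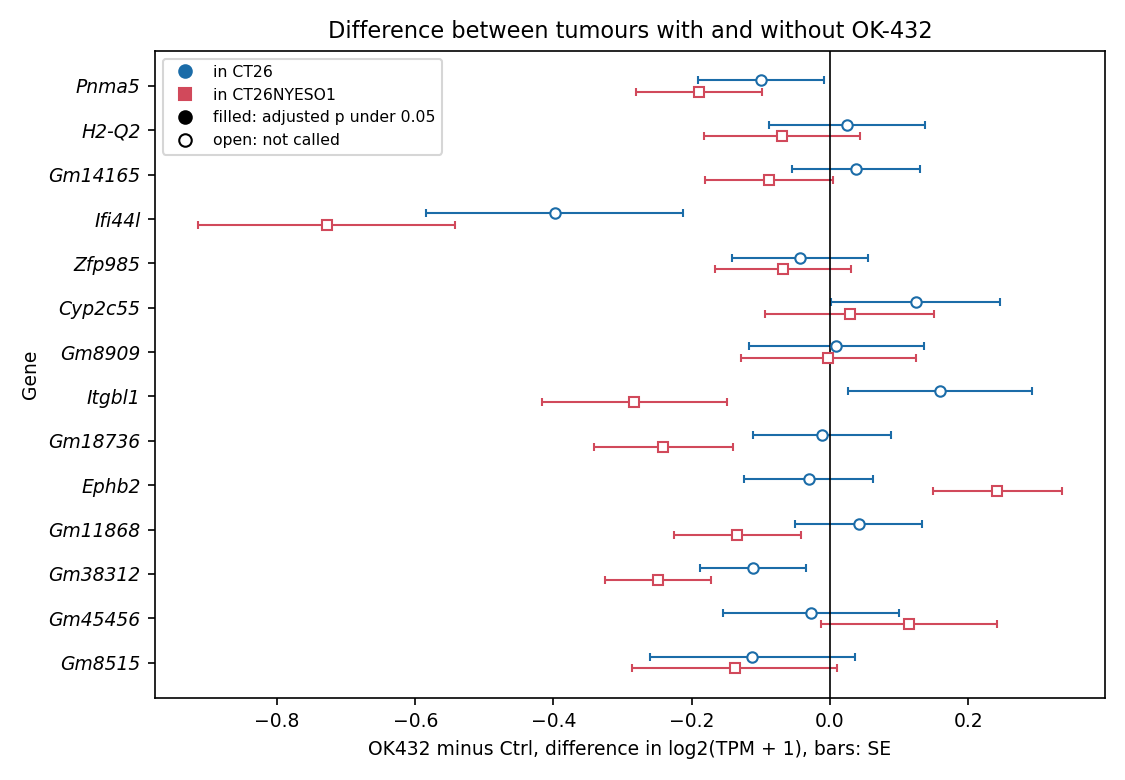
Difference in log2(TPM + 1) between OK432 and Ctrl tumours for the 14 genes (horizontal axis) in CT26 (circles) and CT26NYESO1 (squares), with bars of 1 SE. All symbols are open because no difference had an adjusted p under 0.05, and Ifi44l lies farthest from 0, at −0.40 and −0.73.

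The neutrophil list of 7 genes moved with OK-432, from 26.8 to 32.7 TPM in CT26 controls to 101 to 178 TPM with OK-432 and from 11.03 to 17.3 TPM to 81.7 to 688 TPM in CT26NYESO1. The macrophage list of 7 genes summed to 2225 to 2522 TPM and 2297 to 2663 TPM in CT26 and to 1949 to 2577 TPM and 1442 to 2303 TPM in CT26NYESO1. Their part in the differences of the members was not tested.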

How the data were processed

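Bulk RNA from 18 whole tumours was sequenced in 6 groups of 3 libraries. The deposited values are TPM per gene, computed by the authors. Per the submitters' processing notes, the tools were Trim Galore 0.6.5, STAR 2.7.3a and StringTie 2.1.2 with the mm10 build. Read depth is unknown because each library sums to 1000000 TPM, so counting error could not be given. Members are genes with at least 10 TPM in all 12 CT26-line libraries and under 0.5 TPM in all 6 LL2 libraries. The members and the gene lists were chosen with earlier results of these data known.

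Comparisons within the CT26 lines used limma 3.58.1 in R 4.3.3 on log2(TPM + 1), with trended and robust variance, in 1 fit of all 6 group means with 12 residual degrees of freedom. Genes needed at least 1 TPM in at least 3 libraries, which 16816 did. P-values were adjusted by Benjamini-Hochberg over all of these and called under 0.05. Log2 differences are on the log2(TPM + 1) scale and understate changes of low genes. All members are named. Similar transcripts were found with BLAST 2.17.0 in GENCODE M21, and upstream sequence is from RefSeq GRCm38.p6. The fit was tested on simulated data. The alternatives were rescaling, the pseudocount, the filter, a replicate block, fewer libraries and other thresholds.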

Additional observations from a re-analysis of the deposited data

How the results depend on the processing

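The number of genes that met the rule moved with the thresholds, to 30 at 5 TPM and 6 at 20 TPM in the CT26 lines, and to 4 under 0.1 TPM and 22 under 1 TPM in LL2. It was 14 after median-of-ratios rescaling and 14 to 15 as any 1 library was left out. With 1 library left out, 0 to 1 members were called for OK-432 in CT26NYESO1, 0 in CT26 and 0 for the difference between these effects. The same gave 11 to 12 members called between the lines without OK-432 and 12 to 13 with it. With the replicate block, 0 members were called for OK-432 in CT26, 0 in CT26NYESO1 and 0 for the difference, and 12 and 13 between the lines. The numbers did not pair the samples, since deviations of same-numbered libraries correlated at −0.122 to 0.0808. Of 630 values of single members under the alternatives, 612 kept their side of the threshold, 17 lost the call and 1 gained it. No called value reversed, and 28 values not called in either setting changed sign, each at most 0.142 in size as reported. Without the filter the call of Gm45456 between the lines with OK-432 also ended (−0.32, adjusted p = 0.0671). The cause of these changes was not tested. TPM values carry no depth, so the precision of values near 0 in LL2 is not known.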
